A study of Mus musculus with 16 samples.

Results

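The mitochondrial ribosomal proteins are the nuclear genes whose symbols begin with Mrpl (large subunit) or Mrps (small subunit) followed by a number. Their transcripts were found on the arrays through the accessions of the probes, and no measured value entered that step. The set itself was chosen with earlier results of these data known. There were 78 such genes, 49 of the large and 29 of the small subunit, out of 16737 named genes with a usable probe. They were covered by 101 of 56605 probes. All 101 probes were well above background on all 16 arrays, so no member was lost to a filter on dim signal, and 1 second probe of Mrps2 was set aside for an outlier mark.

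The mitochondrial ribosome translates the few proteins that the mitochondrial genome encodes, all of them subunits of the respiratory chain and of ATP synthase. Its RNAs come from the mitochondrial genome, while all of its proteins are encoded in the nucleus, made in the cytosol and imported. The large subunit carries the peptidyl transferase centre, and the small subunit binds the mRNA and reads its codons. Some of the proteins belong to families shared with bacterial ribosomes, and others are found only in mitochondria. The brain depends heavily on respiration, and inherited defects of several of these proteins cause mitochondrial disease.

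RNA of the cerebellar cortex was measured in 16 mice, each on 1 single-colour Agilent array, with 4 mice in each group. Atm-/- mice (strain B6;129S4-Atmtm1Bal/J), which lack the DNA damage kinase mutated in ataxia-telangiectasia, and their WT littermates were given water (veh) or nicotinamide riboside (NR), a precursor of NAD+. The dose of NR was 3.5 mg/ml (12 mM) in the water that the mice drank, for 2 months from 6 weeks of age, and at 3.5 months of age all mice, labelled male, were sampled. The groups are thus WT and Atm-/- mice, each with veh or NR. WT and Atm-/- samples were hybridised on separate slides, which leaves a slide effect and a genotype effect that cannot be told apart, and on both slides the veh arrays lay in row 1 and the NR arrays in row 2, so treatment and row cannot be told apart either. The mutation is germline, so all cell types of the cerebellum carried it. In whole tissue, fewer cells of a type and less RNA per cell cannot be told apart.

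Several arrays stood apart before any comparison of the members. Atm itself had 2 probes, and 1 of them was 0.87 log2 units lower in Atm-/- veh than in WT veh (limma, adjusted p = 0.000317) with the other 0.35 lower (adjusted p = 0.22). The number of probes well above background ran from 34945 to 37817 in Atm-/- NR and from 39134 to 41905 in Atm-/- veh. All 5 Purkinje cell and all 5 granule cell markers were well above background on all 16 arrays, and none was called in the 4 comparisons of 2 groups, where the Purkinje markers differed by -0.15 (Itpr1) to 0.36 (Ppp1r17, Atm-/- veh over WT veh) and the granule markers by -0.31 (Cbln3, under NR in Atm-/- mice) to 0.42 (Cbln3, Atm-/- veh over WT veh). None of the 5 oligodendrocyte, 4 microglia and 5 astrocyte markers was called either, with differences of -0.80 (Mobp) to 0.57 (Mbp), -0.39 to 0.24 (both Cx3cr1) and -0.75 (Gfap) to 0.52 (Aqp4). On WT veh 4, the mean over the 4 measured choroid plexus markers was 5.74 log2 units above their mean over all arrays, against at most 1.06 on any other array, and the 4 measured forebrain neuron markers stood 3.67 above, against at most 0.93. On Atm-/- veh 3, the 4 measured blood markers stood 2.08 above, against at most 0.30 elsewhere. The 1 probe of Xist was marked well above background, against the label male, on 4 arrays. These were Atm-/- NR 4, Atm-/- veh 3 and the WT NR arrays 1 and 4. Only this mark was read, and no sample was regrouped.

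The promoters of the members called below are shown first, because the mitochondrial ribosomal protein genes are known targets of factors that bind a small set of motifs. RefSeq windows of 300 bases, 250 before to 50 after the start of the gene (GRCm38.p6), matched 69 of 78 members by symbol. The 150 bases before the start are printed for the 3 members that also differed among the 4 groups (Mrpl1, Mrpl27 and Mrpl43) and for Mrpl45, the called member with an NRF1 match. They read 5′ to 3′ on the strand of the gene, with matches to the NRF1 motif GCGCANGCG, the ETS family motif CCGGAAG (bound by GABPA) or the YY1 motif AAGATGGCG in capitals, searched on both strands. Mrpl1 lies at chr5:96209965-96210114 (plus strand), Mrpl27 at chr11:94653641-94653790 (plus strand), Mrpl43 at chr19:45006443-45006592 (minus strand) and Mrpl45 at chr11:97315566-97315715 (plus strand).
Mrpl1: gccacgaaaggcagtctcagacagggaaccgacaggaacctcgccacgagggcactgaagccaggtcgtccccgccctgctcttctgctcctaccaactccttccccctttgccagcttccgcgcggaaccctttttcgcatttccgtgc
Mrpl27: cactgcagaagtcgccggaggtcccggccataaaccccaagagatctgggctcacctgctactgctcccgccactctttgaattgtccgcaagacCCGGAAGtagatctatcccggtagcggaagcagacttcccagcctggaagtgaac
Mrpl43: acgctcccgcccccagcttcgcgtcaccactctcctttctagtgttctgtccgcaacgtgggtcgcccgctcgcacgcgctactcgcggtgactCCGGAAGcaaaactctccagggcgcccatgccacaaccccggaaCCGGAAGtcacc
Mrpl45: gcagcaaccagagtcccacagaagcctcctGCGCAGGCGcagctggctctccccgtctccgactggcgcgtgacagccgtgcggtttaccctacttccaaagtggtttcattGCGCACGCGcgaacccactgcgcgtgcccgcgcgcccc

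Of the 8 called members with a window, 5 held an ETS match. Mrpl27 held 1 ETS match in this stretch and Mrpl43 held 2, while Mrpl45 held 2 NRF1 matches. The stretch of Mrpl1 held none of the 3 motifs, nor did those of Mrpl33, Mrps2 and Mrps33, which are not printed. Over the whole windows, the ETS motif was in 25 of 69 member promoters (36.2%) against 15% of the 13205 windows of measured genes and 9.12% of all 27025 windows. The NRF1 motif was in 16 (23.2%) against 11.5% and 6.47%, and the YY1 motif in 8 (11.6%) against 2.55% and 1.49%. At least 1 of the 3 was in 41 of 69 member windows (59.4%) against 25.8% of the windows of measured genes.

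The other motifs searched had similar or lower shares in the members than in measured genes. The SP1 motif GGGCGG was in 49.3% of member windows against 57.4%, the CCAAT box (CCAAT, bound by NFY) in 39.1% against 38.2%, and the E-box (CACGTG) in 7.25% against 9.49%. The shares in all windows were 35.9%, 37.9% and 7.24%. Median GC content was 58.3% in member windows and 59.7% in windows of measured genes. By subunit, the ETS motif was in 14 of 43 large and 11 of 26 small subunit windows, and the NRF1 motif in 12 and 4. Matches of different motifs shared bases in 2 member windows, those of Mrpl17 and Mrps16 (ETS with SP1). A match is a string of letters and was not tested for binding.

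**Figure D1:**
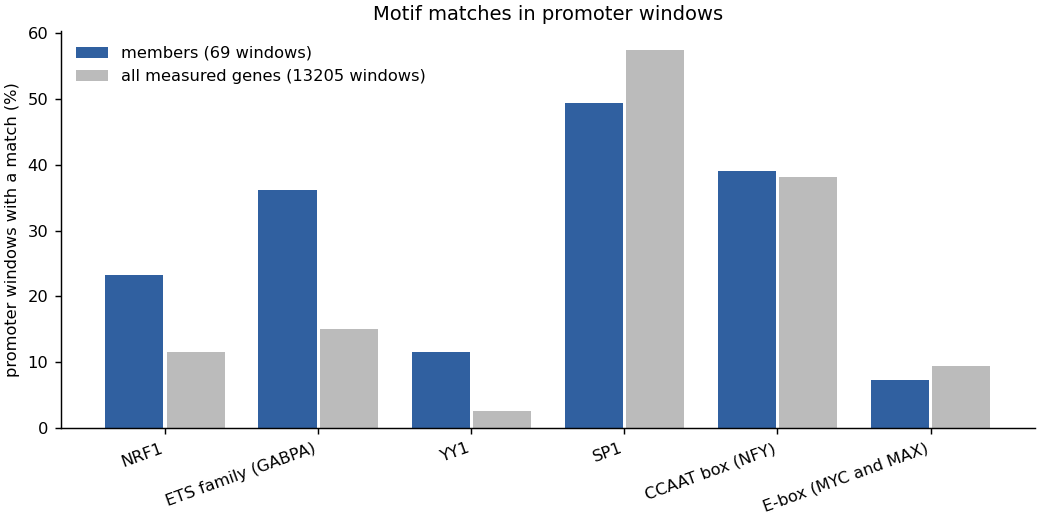
Share of promoter windows (%, vertical axis) with a match to each of 6 motifs on either strand, for 69 members (blue) and 13205 measured genes (grey). ETS, NRF1 and YY1 matches were more frequent in the members (36.2%, 23.2% and 11.6%) than in measured genes (15%, 11.5% and 2.55%), and SP1, CCAAT and E-box matches had similar or lower shares.

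The question of what NR did to these transcripts in mice without Atm was addressed by comparing Atm-/- NR with Atm-/- veh. In this comparison 10 of 78 members passed the test, 9 of them higher and 1 lower under NR (limma, Benjamini-Hochberg adjusted over all 37253 kept probes). The 9 higher members were 11.5% of the members, against 6.67% of all genes called higher, and the 1 lower member was 1.28%, against 4.8% of all genes called lower. In both directions together 12.8% of the members and 11.5% of all genes were called. Of the large subunit, 5 of 49 rose (Mrpl1, Mrpl27, Mrpl33, Mrpl43 and Mrpl45) and 1 fell (Mrpl38). Of the small subunit, 4 of 29 rose (Mrps2, Mrps16, Mrps28 and Mrps33) and none fell.

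Mrpl27 is the counterpart of bacterial L27, which reaches towards the peptidyl transferase centre. Its log2 signal was 14.18, 14.32, 14.15 and 14.24 in Atm-/- veh and 14.55, 14.56, 14.67 and 14.64 in Atm-/- NR. In WT veh it was 14.37, 14.37, 14.35 and 14.28, and in WT NR 14.40, 14.55, 14.53 and 14.56. On this probe the Atm-/- groups did not overlap, and every WT NR array lay above every WT veh array. The rise in Atm-/- mice was 0.38 log2 units (SE 0.064, 1.31-fold, adjusted p = 0.0075). Its promoter is the one above with a single ETS match. The other 2 probes of Mrpl27 gave 0.13 and 0.06 and did not pass the test (adjusted p = 0.27 and 0.70). In WT NR against WT veh these 2 probes gave -0.06 and -0.006, where the probe shown gave 0.17.

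Mrpl1 is the counterpart of bacterial L1, which forms the mobile stalk beside the exit site for tRNA. It stood at 11.22, 11.36, 11.23 and 11.18 in Atm-/- veh and at 11.61, 11.70, 11.72 and 11.72 in Atm-/- NR. In WT veh it stood at 11.56, 11.53, 11.54 and 11.31, and in WT NR at 11.48, 11.59, 11.66 and 11.74. Atm-/- veh was low, with the lowest WT veh array (WT veh 4) inside its range, and all other arrays lay above it. The rise under NR was 0.44 log2 units (SE 0.078, 1.36-fold, adjusted p = 0.0091), and the second probe rose by 0.34 (adjusted p = 0.026). Mrpl1 had the largest rise of the 78 members on the probes used.

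Mrpl43 is found only in mitochondria. It stood at 14.74, 14.77, 14.59 and 14.84 in Atm-/- veh and at 15.05, 15.01, 14.99 and 15.09 in Atm-/- NR, a rise of 0.30 (SE 0.065, 1.23-fold, adjusted p = 0.017). In WT mice the values were 14.84, 14.80, 14.78 and 14.74 in veh and 14.99, 14.95, 15.04 and 15.03 in NR. Both NR groups lay above both veh groups with no overlap. Its promoter holds ETS matches 56 and 12 bases before the start.

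Mrpl45, at the exit of the peptide tunnel where new proteins meet the inner membrane, stood at 13.21, 13.34, 13.11 and 13.15 in Atm-/- veh and at 13.48, 13.58, 13.53 and 13.47 in Atm-/- NR (0.31, SE 0.085, adjusted p = 0.037). Mrpl33, a small protein of a family shared with bacteria, stood at 14.43, 14.52, 14.52 and 14.46 in Atm-/- veh and at 14.73, 14.71, 14.78 and 14.77 in Atm-/- NR (0.26, SE 0.058, adjusted p = 0.018). Neither gene overlapped between these groups. For Mrpl45, 1 WT veh array (WT veh 4, at 13.09) was below all Atm-/- veh arrays.

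Mrpl38, a protein of the large subunit found only in mitochondria, was the member that fell. Its log2 signal was 11.88, 11.65, 11.82 and 12.05 in Atm-/- veh and 11.54, 11.54, 11.44 and 11.44 in Atm-/- NR. In WT veh it was 11.48, 11.52, 11.71 and 11.72, and in WT NR 11.52, 11.45, 11.57 and 11.32. The 3 highest values were in Atm-/- veh, whose lowest array lay within the range of WT veh, and all NR arrays lay below Atm-/- veh. It fell by 0.36 log2 units (SE 0.093, adjusted p = 0.030), and its second probe fell by 0.31 (adjusted p = 0.047).

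Of the small subunit, Mrps16, whose human gene is mutated in a mitochondrial disease, stood at 14.52, 14.53, 14.36 and 14.49 in Atm-/- veh and at 14.67, 14.75, 14.78 and 14.77 in Atm-/- NR (0.27, SE 0.068, adjusted p = 0.028). Mrps2, of a family shared with bacteria, stood at 12.58, 12.63, 12.51 and 12.68 and at 12.92, 12.94, 12.86 and 12.74 (0.27, SE 0.077, adjusted p = 0.046). All 4 called members of the small subunit were separate between the Atm-/- groups.

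Mrps28 stood at 13.36, 13.43, 13.35 and 13.45 in Atm-/- veh and at 13.66, 13.63, 13.66 and 13.65 in Atm-/- NR (0.25, SE 0.065, adjusted p = 0.030). Mrps33, found only in mitochondria, stood at 14.91, 15.01, 14.81 and 14.94 and at 15.13, 15.16, 15.15 and 15.14 (0.23, SE 0.066, adjusted p = 0.047). Its other 2 probes gave 0.28 (adjusted p = 0.015) and 0.41 (adjusted p = 0.065). The NR values of both genes spanned less than those of Atm-/- veh.

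**Figure D2:**
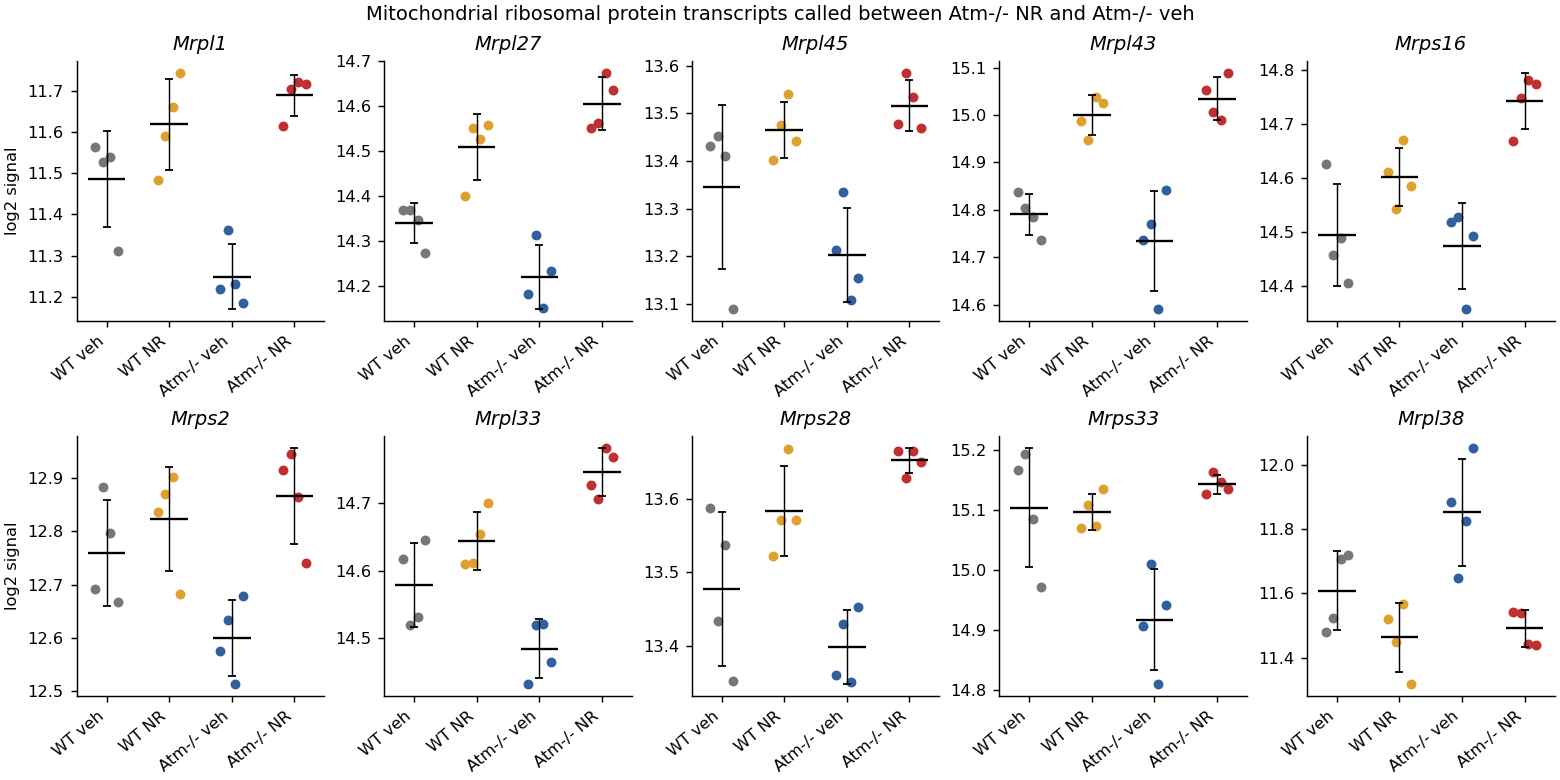
Log2 signal (vertical axis, quantile normalized, a scale of its own in each panel) of the 10 members called between Atm-/- NR and Atm-/- veh, with 1 point per array, the mean of 4 arrays as a line and the SD as error bars. In each panel the Atm-/- NR and Atm-/- veh points do not overlap, with Mrpl38 lower and the other 9 higher under NR.

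Beyond the called members, the direction was shared by most of the set. Under NR, 56 of 78 members (71.8%) were higher in Atm-/- mice, beside 54.9% of all genes, and the median change was 0.07 log2 units beside 0.04 over all genes. An unadjusted limma p under 0.05 was reached by 24 members higher (30.8%, against 17.5% of all genes) and 4 lower (5.13%, against 13%). The groups did not overlap for 26 members higher (33.3%, against 16%) and for 2 lower (2.56%, against 10.3%). Of 76 cytosolic ribosomal proteins 67.1% were higher, and of 37 nuclear subunits of complex I 64.9%. In these 2 lists, 14 and 11 genes higher and 2 and 1 lower reached an unadjusted limma p under 0.05. The groups did not overlap for 23 and 13 of their genes higher and for 4 and 2 lower. The shift was thus not particular to the members. Under 75th percentile scaling the median was 0.13 over the members and 0.03 over all genes, so its size depended on the scaling. The number of probes well above background did not overlap between these groups either, with 34945 to 37817 in Atm-/- NR and 39134 to 41905 in Atm-/- veh. The part of this array difference in the shift was not tested.

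A change above 0.2 without a call was given by 12 members, with adjusted p between 0.052 and 0.72. The largest was that of Mrps22, whose human gene is mutated in a mitochondrial disease, at 12.12, 12.28, 12.25 and 12.17 in Atm-/- veh and at 12.50, 12.68, 12.68 and 12.59 in Atm-/- NR (0.41, SE 0.12, adjusted p = 0.053). These groups did not overlap, while WT veh spanned 12.08 to 12.74. Mrpl2 (0.26, adjusted p = 0.052) and Mrpl47 (0.21, adjusted p = 0.061), both of families shared with bacteria, were also near the threshold. The rest were Mrpl3, Mrpl44, Mrpl50, Mrps14, Mrps15, Mrps21, Mrps25, Mrps26 and Mrps31.

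Among the members with negative values, Mrps27 gave -0.26 (adjusted p = 0.071), Mrps10 gave -0.22 (adjusted p = 0.23), Mrpl10 gave -0.21 (adjusted p = 0.10), Mrps12 gave -0.20 (adjusted p = 0.25) and Mrpl17 gave -0.16 (adjusted p = 0.16). Mrps12 lies at the decoding site, Mrps27 is an RNA-binding protein of the pentatricopeptide family, and Mrpl10 is at the base of the stalk that recruits translation factors. None of these passed the test. The promoter windows of Mrps27, Mrps12 and Mrpl17 held an ETS match, and those of Mrps10 and Mrpl10 did not. Of the 20 members with more than 1 kept probe, 15 had the same sign on all probes, and no member had probes of opposite sign that both reached an unadjusted p under 0.05.

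The subunits were set side by side in the same comparison. The median change was 0.07 over the 49 large subunit members (34 higher) and 0.09 over the 29 small subunit members (22 higher), a difference of -0.02. With Mrps18a and Mrps30 counted to the large subunit, where ribosome structures place them, and Mrps36 to neither, the medians were 0.06 and 0.09. The mean level of the large subunit per array, relative to its mean over all arrays, was -0.02 ± 0.05 (SD, n = 4) without NR and 0.05 ± 0.01 with NR in Atm-/- mice. For the small subunit it was -0.04 ± 0.06 and 0.06 ± 0.01. In both subunits, each Atm-/- NR array lay above each Atm-/- veh array, and the lowest array of the 16 in the small subunit was Atm-/- veh 3, the array with high blood markers, at -0.13. WT veh 4, with the high choroid plexus and forebrain markers, was at -0.10 in both subunits and was the lowest in the large subunit. Without Atm-/- veh 3 the Atm-/- veh means were 0.0041 and -0.0075. The part of these markers in the means was not tested.

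**Figure D3:**
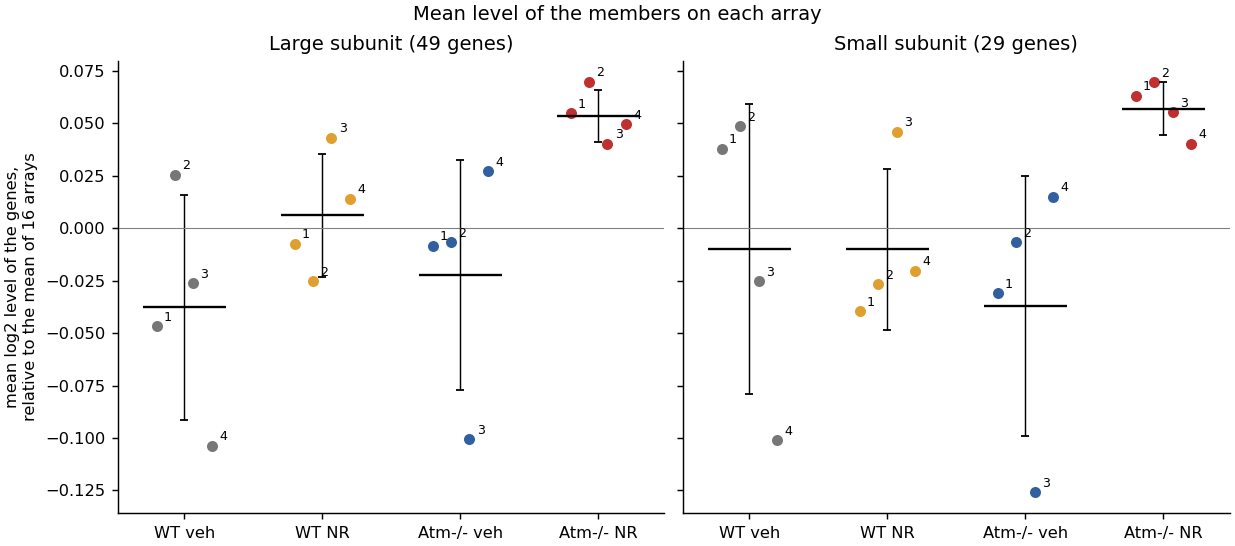
Mean log2 level of the large (left) and small (right) subunit members on each array relative to the mean of all 16 arrays (vertical axis), with the replicate number beside each point, the group mean as a line and the SD over 4 arrays as error bars. The 4 Atm-/- NR arrays lie above all Atm-/- veh arrays in both panels, and WT veh 4 and Atm-/- veh 3 lie at the bottom.

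The difference of the subunits was also taken within each array. The large minus small mean was -0.03 ± 0.04 (SD, n = 4) in WT mice on water and 0.02 ± 0.02 on NR. The WT veh value rested on WT veh 1, the array of low Mrpl44, and was -0.0089 without it. In Atm-/- mice it was 0.02 ± 0.01 on water and -0.0034 ± 0.011 on NR. The difference exceeded its SD in Atm-/- veh and not in the other groups. Over the 16 arrays the 2 subunit means had a Pearson r of 0.876 (Spearman rho 0.844). The mean over both had an r of -0.526 (rho -0.644) with how many probes were well above background. The points share the normalization of each array, and both values are descriptions with no test.

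Members shared with bacteria and members found only in mitochondria were also set apart in Atm-/- NR against Atm-/- veh. Over all genes, 6.67% were called higher and 4.8% lower there, and the median was 0.04. In the large subunit, 3 of 30 members of bacterial families rose and none fell, with a median of 0.09, while 2 of 19 members found only in mitochondria rose and 1 fell, with a median of 0.01. In the small subunit, 3 of 16 members of bacterial families rose (median 0.07) and 1 of 13 found only in mitochondria (median 0.09). The lower median thus stood in the mitochondrial part of the large subunit, which holds Mrpl38 as well as Mrpl43 and Mrpl45. The difference between the classes was not tested.

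In WT mice the same question was asked by comparing WT NR with WT veh. No member passed the test, and none of the 16737 genes did (limma, 0% called higher and 0% lower). An unadjusted limma p under 0.05 was reached by 3 members higher, beside 4.03% of all genes, and by 2 lower, beside 4.8%. The methods' t-test called no member after adjustment, beside 0 of 37253 kept probes. Without adjustment it called 3 members higher and 2 lower, beside 2509 of these probes in both directions. The median over members was 0.03 (0.03 for the large and 0.01 for the small subunit) beside -0.01 over all genes, and 50 of 78 members (64.1%) were higher, beside 48.5% of all genes. This direction rested on single arrays. Without WT veh 4, the array with high choroid plexus and forebrain markers, 36 of 78 members were higher with a median of -0.0043, and without WT NR 3 the median was 0.0026 with 42 higher. All 5 oligodendrocyte markers had higher means in WT NR than in WT veh (median 0.35, none called). Their part in the values of the members was not tested.

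The lowest unadjusted p values belonged to Mrpl43 (0.21, SE 0.065, adjusted p = 0.52), Mrpl27 (0.17, SE 0.064, adjusted p = 0.58) and Mrpl46 (0.22, SE 0.087, adjusted p = 0.60) among the members with positive values. The other 2 probes of Mrpl27 gave -0.06 and -0.006. Among those with negative values they belonged to Mrps27 (-0.26, SE 0.084, adjusted p = 0.53) and Mrps12 (-0.31, SE 0.11, adjusted p = 0.57). For these 5 the WT groups did not overlap, 3 of them higher (1.71% of all genes did so) and 2 lower (2.87%). Mrps27 stood at 10.90, 10.95, 10.96 and 10.94 in WT veh and at 10.60, 10.65, 10.73 and 10.71 in WT NR. Mrps12 stood at 14.62, 14.61, 14.56 and 14.56 and at 14.31, 14.07, 14.55 and 14.17. Both genes also had negative values in Atm-/- mice, without a call.

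Mrpl44, a protein related to the nuclease that processes double-stranded RNA, gave 0.69 in this comparison (SE 0.39, adjusted p = 0.73). The value rested on WT veh 1, which stood at 9.82 while the other 3 WT veh arrays stood at 12.34, 12.11 and 12.05. Without that array the change was 0.11. Its SE of 0.39 was the highest of all members, whose median SE was 0.077.

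The NR changes of both genotypes were then set side by side, which is possible since they share no array. Of 78 members, 62 (79.5%) had the same sign in both, 45 higher and 17 lower, beside 71.3% of all genes. Over the members the 2 changes had a Pearson r of 0.603 and a Spearman rho of 0.707, beside 0.380 and 0.494 over all genes. Genes are not independent replicates, and row and treatment were laid out alike on both slides.

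**Figure D4:**
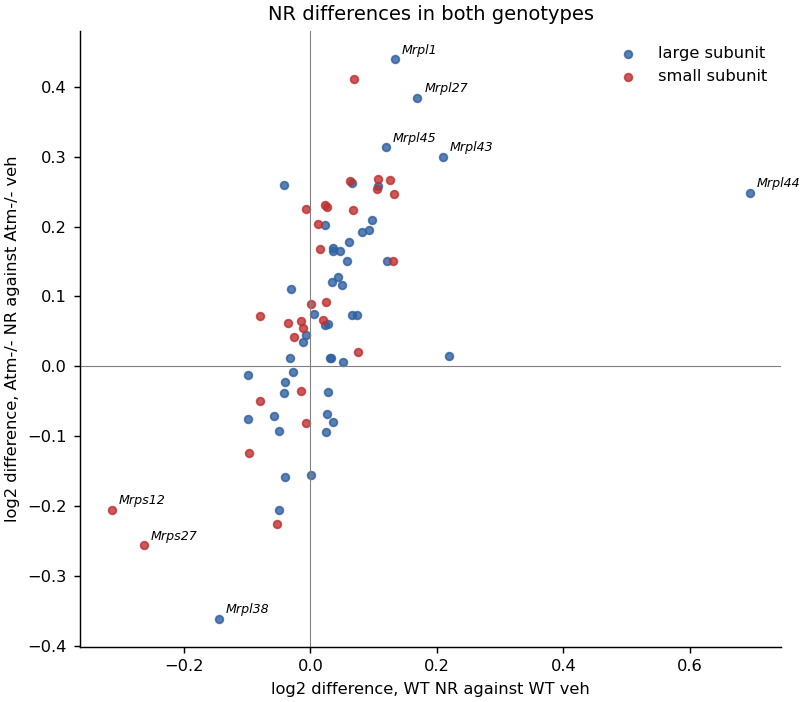
Log2 difference of each of the 78 members between NR and veh in WT mice (horizontal axis) and in Atm-/- mice (vertical axis), coloured by subunit. Most points (62 of 78) lie at the lower left or upper right, with the same sign on both axes, and Mrpl44 stands far to the right through 1 array.

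The difference of the NR effects between genotypes was tested in the same fit. No member passed the test, and no gene did (0% of all genes higher and 0% lower). An unadjusted p under 0.05 was reached by 4 members with a larger value in Atm-/- mice, beside 3.91% of all genes, and by none with a smaller one, beside 2.05%. The 4 were Mrpl1 (0.31, SE 0.11), Mrps33 (0.23, SE 0.093), Mrpl33 (0.20, SE 0.082) and Mrpl27 (0.22, SE 0.090), each with an adjusted p of 0.84. In the other direction Mrpl46 gave -0.20, Mrpl38 gave -0.22 and Mrpl17 gave -0.16, none near the threshold. The median was 0.04 over the large and 0.10 over the small subunit members, beside 0.03 over all genes. Over all members it was 0.07, with 0.04 without Atm-/- veh 3, 0.02 on the arrays without Xist signal and 0.11 under 75th percentile scaling. So the calls in Atm-/- mice alone are not shown to differ from the values in WT mice.

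Loss of Atm without NR was examined by comparing Atm-/- veh with WT veh. No member passed the test, and 0.00597% of all genes were called higher and 0.0478% lower. An unadjusted p under 0.05 was reached by 6 members higher, beside 7.1% of all genes, and by 2 lower, beside 9.73%. The methods' t-test called no member after adjustment, beside 0 of 37253 kept probes. Without adjustment it called 2 members higher and 5 lower, beside 4326 of these probes in both directions. The median was -0.02 over all members, -0.01 over the large and -0.06 over the small subunit, beside -0.03 over all genes. The sign over all members was not kept, with 0.0063 (40 of 78 higher) without Atm-/- veh 3 and 0.0067 on the arrays without Xist signal. The median was -0.06 (27 higher) under 75th percentile scaling, -0.0057 with normexp, -0.04 without WT veh 4 and -0.01 without WT veh 2. The 6 with positive values were Mrpl10 (0.25, SE 0.076, adjusted p = 0.21), Mrpl17 (0.19, adjusted p = 0.25), Mrpl38 (0.24, adjusted p = 0.27), Mrpl53 (0.22, adjusted p = 0.31), Mrpl9 (0.21, adjusted p = 0.33) and Mrps10 (0.26, adjusted p = 0.33).

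The 2 with negative values were Mrpl1 (-0.24, SE 0.078, adjusted p = 0.23) and Mrps33 (-0.19, SE 0.066, adjusted p = 0.25), followed by Mrps2 (-0.16, adjusted p = 0.36), Mrpl27 (-0.12, adjusted p = 0.41), Mrpl47 (-0.12, adjusted p = 0.42) and Mrpl42 (-0.16, adjusted p = 0.42). Mrpl10 stood at 11.70, 11.52, 11.50 and 11.66 in WT veh and at 11.92, 11.77, 11.73 and 11.94 in Atm-/- veh. Mrpl10 and Mrpl17 were the 2 members whose groups did not overlap, both higher in Atm-/- veh, where 3.9% of all genes did so and 4.84% were lower without overlap. This comparison and that of Atm-/- NR with Atm-/- veh share the 4 Atm-/- veh arrays. Beside the positive values of Mrpl10, Mrpl17, Mrpl38 and Mrps10 in Atm-/- veh over WT veh, the values under NR in Atm-/- mice were -0.21, -0.16, -0.36 and -0.22.

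Under NR the genotypes were compared through Atm-/- NR and WT NR. No member passed the test, while 0.0119% of all genes were called higher and 0.0478% lower, and no member reached an unadjusted limma p under 0.05, beside 2.62% of all genes higher and 1.73% lower. The methods' t-test called no member after adjustment, beside 9 of 37253 kept probes. Without adjustment it called 10 members higher and 1 lower, beside 2361 of these probes in both directions. The latter counts probes and not genes, so it gives no share of genes to set beside the members. The values were small and mostly of 1 sign. In Atm-/- NR 71 of 78 members (91.0%) had the higher mean, 43 of 49 in the large and 28 of 29 in the small subunit, beside 52.8% of all genes. The median was 0.05 (0.05 for the large and 0.06 for the small subunit) beside 0.01 over all genes. The groups did not overlap for 6 members, Mrpl2, Mrpl9, Mrpl32, Mrpl33, Mrpl49 and Mrps5, all higher in Atm-/- NR (7.69%, beside 2.74% of all genes), and for none lower (beside 1.8%). For Mrps5 the highest WT NR array was at 11.676 and the lowest Atm-/- NR array at 11.681. The second probes of Mrpl9 and Mrps5 gave 0.12 and -0.12, where the probes used gave 0.11 for both. The genotypes lie on different slides, so the shift of the members cannot be told apart from one between slides. All 5 oligodendrocyte markers were lower in Atm-/- NR than in WT NR (median -0.40, 3 at an unadjusted p under 0.05, 2 without overlap, none called). Their mean level, relative to all arrays, was 0.31 ± 0.33 (SD, n = 4) in WT NR and -0.12 ± 0.15 in Atm-/- NR. All 4 microglia markers were also lower (median -0.23) and all 4 blood markers higher (median 0.31), none at an unadjusted p under 0.05. The part of these markers in the shift of the members was not tested.

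The member of lowest unadjusted p here was Mrpl49, a protein found only in mitochondria, at 11.54, 11.56, 11.64 and 11.59 in WT NR and at 11.67, 11.78, 11.76 and 11.71 in Atm-/- NR (0.15, SE 0.070, adjusted p = 0.95). Mrps16 gave 0.14, Mrps12 0.23, Mrpl33 0.10, Mrps26 0.19 and Mrps35 0.13, with adjusted p of at least 0.95. The 7 members with lower means ranged down to Mrpl46 at -0.11, and Mrpl30, Mrpl42, Mrpl35 and Mrps36 gave between -0.05 and -0.08. Mrpl51 gave -0.03, and scaling to the 75th percentile turned it to 0.0049.

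**Figure D5:**
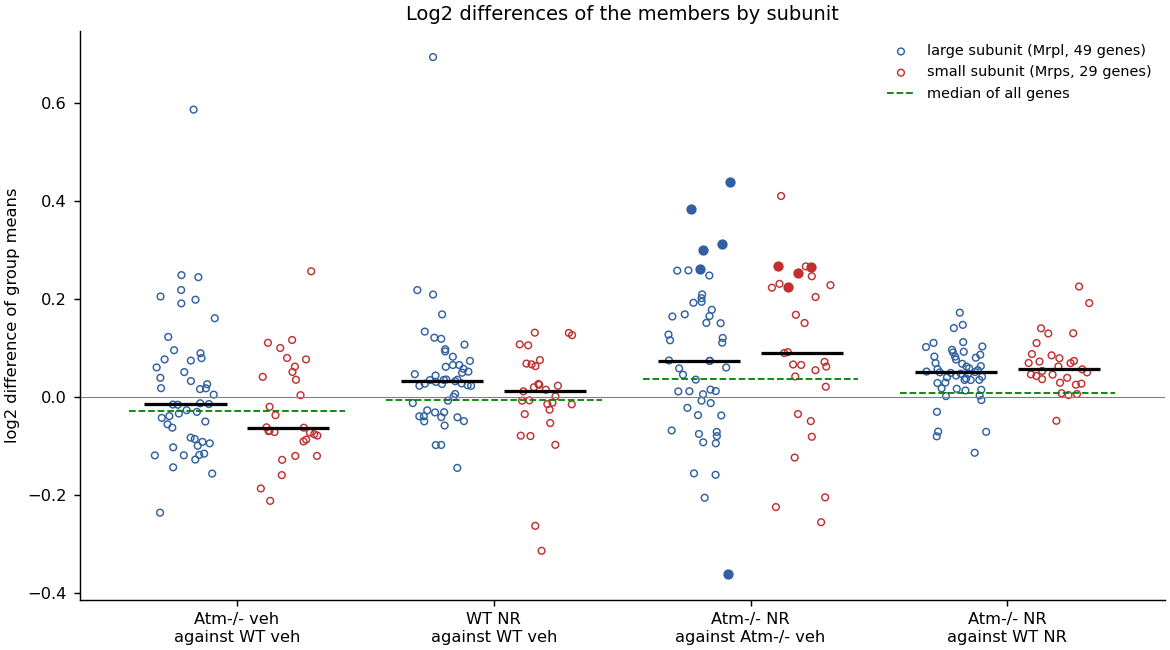
Log2 difference of group means (vertical axis) of each member in 4 comparisons, with the large subunit in blue and the small in red. Filled points passed the test, black lines are medians of a subunit and green dashed lines are medians of all genes. Filled points appear only for Atm-/- NR against Atm-/- veh (9 higher and 1 lower), and the members lie closest together for Atm-/- NR against WT NR.

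Over all 4 groups at once, a moderated F test called 3 members, Mrpl1, Mrpl27 and Mrpl43, all of the large subunit, beside 6.14% of all genes.

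Other genes that make and serve the mitochondrial ribosome were read in Atm-/- NR against Atm-/- veh, where 6.67% of all genes were called higher and 4.8% lower, 11.5% together. Of 5 ribosomal proteins with other symbols, 1 rose, Chchd1 (0.26, adjusted p = 0.030). Of 26 genes for assembly and rRNA modification, 4 rose (15.4%) and none fell, with a median of 0.12. They were Mtg1 (0.50, adjusted p = 0.012) and Noa1 (0.27, adjusted p = 0.044), GTPases of ribosome assembly, Rpusd4 (0.46, adjusted p = 0.010), a pseudouridine synthase, and Ngrn (0.34, adjusted p = 0.038), which works with it on the large rRNA. Of 15 translation factors, 2 rose (13.3%) and none fell (median 0.11), Mtfmt (0.32, adjusted p = 0.027), which formylates the initiator tRNA, and Mrrf (0.30, adjusted p = 0.043), which recycles ribosomes.

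Of 20 genes for mitochondrial tRNA charging, 3 rose, Tars2, Yars2 and Rars2 (0.24, 0.44 and 0.29), and none fell, while the median was -0.03. Of 14 genes for expression of the mitochondrial genome none was called. For comparison, 7 of 76 cytosolic ribosomal proteins rose and 2 fell (11.8% together), with a median of 0.04, and 4 of 37 nuclear subunits of complex I rose (10.8%) and none fell, with a median of 0.05. In Atm-/- NR against WT NR, where 91.0% of the members were higher, this share was 51.3% in the cytosolic ribosomal proteins and 83.8% in complex I, with medians of 0.00 and 0.04. None of these differences between lists was tested.

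The calls in Atm-/- mice depended on which arrays were used. Leaving out each of the 16 arrays in turn gave between 2 called members (without Atm-/- veh 1) and 15 (without WT veh 4). The share of all genes called was 2.96% and 14.9% in these settings. There were 5 without Atm-/- veh 3 (8.03% of all genes) and 3 without Atm-/- veh 4 (4.57%). Without the Atm-/- NR arrays 1, 2, 3 and 4 there were 6, 4, 3 and 5 (8.79%, 5.32%, 3.19% and 6.55% of all genes). Without both WT veh 4 and Atm-/- veh 3 there were 11 (12.1% of all genes were called), of which 8 were among the 10. On the 12 arrays without Xist signal no member was called, 13 reached an unadjusted p under 0.05 higher and 5 lower, and 1.15% of all genes were called. In that setting 49 of 78 members were higher, with a median of 0.07.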

How the data were processed

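Each of the 16 arrays has a scanner file deposited by the authors (Agilent Feature Extraction 12.0.3.1) with spot intensities, background-subtracted but on the scale of that array. A table of z-scores that the authors deposited, 1 score per spot and array, served only as an alternative. The array design used mm9; probes were named through their accessions with RefSeq genes of GRCm38.p6, which named 32994 of 56605 probes, and no coordinate was converted.

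Groups and replicate numbers came from the labels. A probe was used if 0.5 or more of its spots were well above background throughout any group of 4 arrays. After quantile normalization of the log2 intensities, outlier spots were dropped and the rest averaged by probe, giving 37253 kept probes and 16737 named genes. A gene was read on its brightest kept probe. Differences were tested with limma 3.58.1 (R 4.3.3) with 4 group means, 12 residual degrees of freedom and Benjamini-Hochberg adjustment over all kept probes, and called at an adjusted p under 0.05. On simulated data with independent noise, the fit was tried with planted changes of 1 log2 unit, larger than those of the called members. The simulation does not show how the fit does for smaller changes. The number of arrays limits the precision. The p-values set a difference against the spread between arrays of a group. With 1 array per mouse, that spread holds differences of mouse, sample and array together.

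The members and lists were chosen with earlier results of these data known. Named members are those called in any comparison or in the F test, the 6 of lowest unadjusted p in each direction in each comparison of 2 groups, and the 3 in each direction for the difference of NR effects; other members are named for single values and were chosen after these were seen. Promoter windows are those of RefSeq (GRCm38.p6), the first listed where a gene had several. Alternatives were 75th percentile scaling, normexp (offset 50), the deposited scores, filters, leaving out arrays, the replicate block, fits of 2 groups, arrays without Xist signal, the mean of all probes, the subunits as placed in structures and the methods' t-test. The methods' t-test was run alone on the log2 values, without the z-ratio, false discovery rate and ANOVA limits that the methods also set. Its counts beside those of the members are over all kept probes, named or not, and are not shares of genes. One alternative, without WT veh 4 and Atm-/- veh 3, was chosen after seeing the data.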

Additional observations from a re-analysis of the deposited data

Results flagged for a closer look

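In 136 sets of 4 arrays (each named member, the subunit means and the number of probes well above background, in each group), 5 had 1 array far from the other 3, where chance flags about 1 in 20 sets. The measure is the gap of that array to its nearest neighbour divided by the range of the group, which was above Dixon's critical value in each. Mrpl1 had 2 such sets, WT veh 4 at 11.31 against 11.53 to 11.56 (0.857) and Atm-/- NR 1 at 11.61 against 11.70 to 11.72 (0.850). Mrpl44 stood at 9.82 on WT veh 1 against 12.05 to 12.34 (0.884). Mrpl45 stood at 13.09 on WT veh 4 against 13.41 to 13.45 (0.884). Mrps36 stood at 13.18 on Atm-/- veh 3 against 13.43 to 13.48 (0.838).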

How the results depend on the processing

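The 10 members called in Atm-/- NR against Atm-/- veh kept their direction under all 26 alternatives run for each of them, and Mrpl1 kept its call under 25, Mrpl27 under 24, Mrpl38 under 18, Mrps2 under 9 and Mrps33 under 8. Most of these alternatives leave out arrays, which can hardly turn a sign where the groups do not overlap, so the kept direction tests little. WT arrays are not in the groups compared, so leaving them out tests these calls less directly. The number called was 16 under 75th percentile scaling, which also moved the median of the large subunit to 0.13, 18 with the methods' t-test after Benjamini-Hochberg adjustment (30 higher and 7 lower at their threshold of 0.05) and 0 on the arrays without Xist signal. Leaving out 1 array gave 2 to 15 (2.96% to 14.9% of all genes). Of all 37253 kept probes, the methods' t-test called 3113 after adjustment, and 10061 reached its threshold of 0.05 without it. The F test called 5 members under 75th percentile scaling, under normexp and among probes well above background on all arrays, 0 on the arrays without Xist signal, and 0 to 6 with 1 array left out. The large minus small difference in Atm-/- NR against Atm-/- veh was -0.056 to 0.0026 with 1 array left out. In Atm-/- veh against WT veh it was 0.048, with 0.011 on the mean of all probes, 0.015 without WT veh 4 and Atm-/- veh 3, and 0.023 to 0.066 with 1 array left out. Mrpl51 in Atm-/- NR against WT NR turned from -0.03 to 0.0049 under 75th percentile scaling. Mrps27 was called in Atm-/- mice without Atm-/- veh 3 (-0.34). The cause of these changes was not tested. In the other comparisons no member was called under any alternative, and in Atm-/- NR against WT NR between 63 and 72 members were higher.

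Replicate numbers did not pair the arrays (correlations of deviations from -0.328 to 0.367, 6 of 24 over 0.1). With the replicate block, 8 members were called in Atm-/- NR against Atm-/- veh, beside 10.7% of all genes.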

Other observations

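Members with an ETS match in their promoter window (25) had a median NR change of 0.15 log2 units in Atm-/- mice, and the 44 without had 0.06, beside 0.04 and 0.03 over measured genes. With an NRF1 match the median was 0.07 (16 members), and without it was 0.07 (53), beside 0.04 and 0.03. The 8 members with a YY1 match had a median of -0.05 and the 61 without had 0.13, beside -0.01 and 0.04 over measured genes. With any of the 3 motifs the median was 0.07 (41 members) and with none 0.09 (28). For the SP1 motif, the CCAAT box and the E-box the medians with a match were 0.08, 0.07 and 0.11, and without 0.07, 0.08 and 0.07. These values were not tested.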
